A study of Mus musculus with 35 samples.

Results

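The regions described here are the ChIP-seq regions that the authors listed over the mouse C-type lectin receptor clusters and Cd69. They were taken by position: every listed region of up to 100 kb that overlaps chr6:122850000-123300000, the window of Clec4a2, Clec4n, Clec4d and Clec4e, or chr6:129050000-129550000, the window of Cd69, Clec12a, Clec9a and Clec7a (mm9 coordinates). The windows themselves were chosen with earlier results of these data known, so shares set beside those of the genome only describe them. There were 425 such regions, 186 in the Clec4 window and 239 in the Cd69 window, of 233211 listed regions up to 100 kb and 250088 of every width in the series. By target, 241 were regions of acetylated histone H4 (H4ac), 164 of RNA polymerase II (Pol II), 11 of ATF3, 5 of NF-κB p65, 4 of NF-κB p50 and 0 of trimethylated histone H3 lysine 27 (H3K27me3).

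The cells were primary bone marrow-derived macrophages cultured from wild-type female C57BL/6 mice aged 8 to 12 weeks, stimulated with lipopolysaccharide (LPS), the bacterial cell wall product sensed by Toll-like receptor 4, or left unstimulated. Chromatin was immunoprecipitated and sequenced in 35 libraries that form 20 groups. H4ac had 2 libraries at each of 0 (unstimulated), 60, 120 and 240 min of LPS, and Pol II had 1 unstimulated library, 2 at 60 min, 1 at 120 min, 2 at 240 min and 1 at 360 min. For p50 there were 4 libraries at 60 min of LPS and 3 unstimulated ones, and for p65 there were 2 at 60 min, 2 at 120 min and 1 unstimulated. ATF3 had 3 libraries at 240 min of LPS and no unstimulated one. H3K27me3 had 1 library each unstimulated, at 120, 240 and 480 min, and 1 titled 60 min with a 7 h delay, whose labelled time is also 480 min. The lists held 255 to 28522 regions each, and the read depth behind them is unknown. Nothing in the labels says that libraries of a group came from separate animals or cultures, so the p-values below measure the spread between libraries, which may be technical. In a bulk sample, fewer cells with a mark and less of the mark per cell cannot be told apart.

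C-type lectin receptors are membrane proteins with a lectin-like fold that bind sugars, lipids or proteins of microbes and dead cells. Clec4e (Mincle) and Clec4d (MCL) bind mycobacterial glycolipids, Clec4n (Dectin-2) binds fungal mannans and Clec7a (Dectin-1) binds fungal beta-glucans. Clec4a2 (a DCIR) and Clec12a (MICL) are inhibitory receptors. Clec9a (DNGR-1) recognises filamentous actin exposed by dead cells and is best known from dendritic cells. Cd69 is an early activation antigen of lymphocytes and other leukocytes that restrains their exit from tissue. In the RefSeq annotation of the mouse genome the coding genes run in the order Clec4a2, Clec4b2, Clec4n, Clec4d and Clec4e in the first cluster, and Cd69, Clec2m, Clec12a, Clec12b, Clec1b, Clec9a, Clec1a and Clec7a in the other. Only genes from the first to the last of the named receptors or Cd69 were read, so other genes of the windows are not listed. That annotation is of another build than the regions, so it was used for names and order only, and no region was assigned to a gene.

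Because p50 and p65 are NF-κB subunits and ATF3 is a bZIP factor, the promoters of the receptors were read for the motifs of these families. RefSeq promoters of GRCm38.p6 were held for 6 of the 8 genes, in 7 entries, and the 250 bases before the start site were searched on both strands. The κB motif was GGG and CC with 5 bases of any kind between them. The AP-1 motif was searched as the loose pattern TGANTCA, with any base at N, and the CRE motif was TGACGTCA. Of the 4 promoters below, Clec4d and Clec4e were chosen as the last named genes of the first window, where Pol II was listed in every library. Clec12a was chosen because it held the single match, and Clec7a as the last named gene of the second window. They are given 5′ to 3′ on the strand of the gene, with the AP-1 match in capitals.
Clec4d (chr6:123261857-123262106, GRCm38.p6, plus strand): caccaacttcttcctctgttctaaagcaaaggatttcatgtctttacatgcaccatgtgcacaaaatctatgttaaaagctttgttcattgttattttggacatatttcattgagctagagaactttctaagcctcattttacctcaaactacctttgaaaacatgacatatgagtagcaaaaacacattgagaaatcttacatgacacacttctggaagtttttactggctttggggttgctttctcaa
Clec4e (chr6:123289872-123290121, GRCm38.p6, minus strand): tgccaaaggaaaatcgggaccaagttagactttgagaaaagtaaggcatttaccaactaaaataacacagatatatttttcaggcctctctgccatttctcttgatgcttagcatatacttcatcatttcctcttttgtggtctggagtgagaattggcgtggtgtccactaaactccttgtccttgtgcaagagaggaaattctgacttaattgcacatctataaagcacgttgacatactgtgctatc
Clec12a (chr6:129349994-129350243, GRCm38.p6, plus strand): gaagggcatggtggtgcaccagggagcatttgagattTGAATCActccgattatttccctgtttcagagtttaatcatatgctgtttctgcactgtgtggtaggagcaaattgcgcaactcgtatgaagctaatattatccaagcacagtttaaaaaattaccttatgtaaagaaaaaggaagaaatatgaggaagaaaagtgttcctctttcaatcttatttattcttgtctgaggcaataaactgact
Clec7a (chr6:129472780-129473029, GRCm38.p6, minus strand): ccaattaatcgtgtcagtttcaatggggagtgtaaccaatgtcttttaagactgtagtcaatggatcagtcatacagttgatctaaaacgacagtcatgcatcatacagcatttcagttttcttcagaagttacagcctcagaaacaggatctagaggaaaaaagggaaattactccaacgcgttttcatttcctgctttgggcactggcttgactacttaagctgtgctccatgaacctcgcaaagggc

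No entry of the 6 genes held the κB motif, which 45.8% of 32851 mouse promoters of this length held, and none held the CRE motif, which 1.55% held. Clec12a held 1 AP-1 match, TGAATCA, whose first base lies 213 bases before the start, where 6.75% of promoters held this motif. A match is a run of letters and no evidence of binding, and the absence of one says only that these letters are not in this window.

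Among regions up to 25 kb, Pol II in the C-type lectin windows was listed at more places with LPS than without. Each merged region up to 25 kb that the unstimulated list held was held at every later time too. Regions of up to 25 kb were merged across the 7 Pol II libraries wherever they overlapped, which gave 13 merged regions in the windows. Gained at a time means that a merged region was in every list of that time and not in the unstimulated list. Lost means that it was in the unstimulated list and in no list of that time. Of the 13, 3 were gained at 60 min, against 6.18% of the 8258 merged regions of the genome, 4 at 120 min, against 10.6%, 4 at 240 min, against 7.34%, and 1 at 360 min, against 7.7%. At each of these times 0 of 13 were lost. Over the genome 29%, 37.5%, 30.9% and 40% of merged regions were lost at 60, 120, 240 and 360 min. Only a merged region in the unstimulated list can be lost, and 4 of the 13 were in it. The genome's share in the unstimulated list was not counted, so rates of loss among such regions cannot be compared. With regions up to 10 kb, 1 of 14 was lost at 360 min. The 3 merged regions gained at 60 min all lie inside 1 region of the unstimulated list, of 3192.6 kb, which the limit leaves out. A further count was 4 of 13 held by all 7 lists, against 5.49% over the genome. With 1 unstimulated library there is no replicate check of these differences, and none was tested. The unstimulated library shares the date in its title with no LPS library of Pol II, so that date and condition cannot be told apart. Without the 240-min library A, 7 regions counted as gained at 240 min, since library B alone then sets the count.

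**Figure D1:**
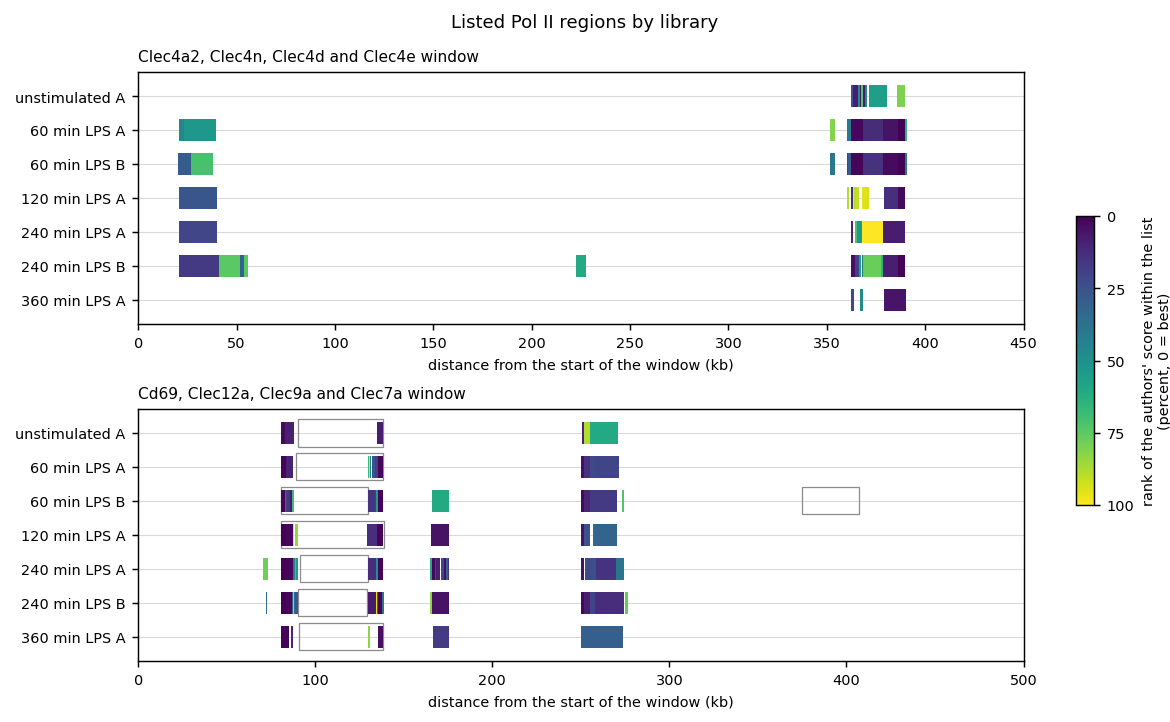
Pol II regions listed in each of the 7 libraries, plotted by distance from the start of the Clec4 window (upper) and the Cd69 window (lower) in kb. Filled boxes are regions up to 25 kb, coloured by the percent rank of the authors' score in that list and drawn at least 0.8 kb wide, and open boxes are regions of 25 to 100 kb. The block 20.4 to 41.1 kb into the Clec4 window is filled from 60 to 240 min and empty in the unstimulated and 360-min libraries, and the block 164.8 to 175.5 kb into the Cd69 window is empty in the unstimulated library and in 60-min library A.

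In the Clec4 window, a Pol II block at chr6:122870401-122891120 was listed from 60 to 240 min and not before or after. It covered 0 bp in the unstimulated library, 18770 and 17800 bp at 60 min, 19110 bp at 120 min, 18990 and 20540 bp at 240 min and 0 bp at 360 min. All 5 libraries of 60 to 240 min were therefore high and the other libraries at 0. The unstimulated list has over this place only a region of 3192.6 kb, and the 360-min list only one of 371.34 kb, both too wide to count as members. Among the libraries that held it, its best region ranked 2555 of 5519 and 1730 of 6061 at 60 min, 1216 of 4559 at 120 min, and 1067 of 5144 in 240-min library A, by the authors' score within each list, and stood at 16.5% of the list in 240-min library B.

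The opposite end of the Clec4 window held Pol II in every library. The merged region chr6:123212101-123240540 was covered over 21160 bp unstimulated, 28010 and 28390 bp at 60 min, 18440 bp at 120 min, 26880 and 26810 bp at 240 min, and 13860 bp at 360 min. Coverage was highest at 60 min and lowest at 360 min, with the 120-min library below the unstimulated one. The place of the best score within the block differed between the conditions. With LPS the best region of 4 libraries was one of 3690 to 3880 bp at its far end, such as chr6:123236031-123239910 in 60-min library A. It ranked 36 of 5519 and 24 of 6061 at 60 min, 120 of 4559 at 120 min and 86 of 7728 in 240-min library B. In 240-min library A and at 360 min the best region was wider, 11500 and 11140 bp, and reached the same far end, with ranks of 398 of 5144 and 156 of 2948. In the unstimulated library the best region was instead chr6:123217051-123217340, at rank 486 of 7436, and the region over the far end, chr6:123235561-123239640, stood at rank 5978. Ranks in lists of different length order the regions within a list and do not measure a change.

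Smaller Pol II regions beside this block were listed, among regions up to 25 kb, with LPS alone. The unstimulated list has both places only inside its region of 3192.6 kb. The best region of the first below ranked 4490 of 5519 and 2432 of 6061 at 60 min. That of the second ranked 2246 of 5519 and 1331 of 6061 at 60 min and 4043 of 4559 at 120 min. The region chr6:123201551-123203990 was covered over 2140 and 2430 bp in the 60-min libraries and 0 bp in all the others. The region chr6:123210301-123212070 was covered over 1760 and 1260 bp at 60 min and 590 bp at 120 min, and 0 bp in the unstimulated, 240-min and 360-min libraries. Both were thus confined to the early libraries among the lists of regions up to 25 kb. The remaining merged regions of the window, chr6:122891121-122905850 and chr6:123072721-123077660, were held by 240-min library B only, over 14730 and 4940 bp.

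Of the Pol II blocks of the Cd69 window, 3 were held by all 7 lists. The first, chr6:129130521-129138130, was covered over 7410 bp unstimulated, 7000 and 6870 bp at 60 min, 7230 bp at 120 min, 7360 bp in both 240-min libraries and 5220 bp at 360 min. Its covered length was nearly level until 240 min and lower at 360 min. Its best region ranked 159 of 7436 unstimulated, and from rank 18 of 5144 to rank 76 of 6061 with LPS. The second, chr6:129179461-129188480, was covered over 3540 bp unstimulated, 7690 and 8870 bp at 60 min, 8890 bp at 120 min, 8610 and 8680 bp at 240 min and 3950 bp at 360 min. Here the unstimulated and 360-min libraries were low and the 5 libraries between them did not overlap with these. The same lengths were covered with regions up to 10 kb, but the separation was not seen at 100 kb. With regions up to 100 kb, 8920 bp were covered unstimulated and 8910 bp at 360 min, against 8680 to 9020 bp between them. The third, chr6:129300181-129324360, was covered over 19580 bp unstimulated, 21300 and 21220 bp at 60 min, 18190 bp at 120 min, 23290 and 23930 bp at 240 min, and 23590 bp at 360 min, so the 120-min library lay below the unstimulated one.

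A further Pol II block of the Cd69 window, chr6:129214761-129225510, appeared with LPS and was still listed at 360 min. It was covered over 0 bp unstimulated, 0 and 9490 bp at 60 min, 9850 bp at 120 min, 9230 and 10750 bp at 240 min, and 9140 bp at 360 min. The 60-min libraries disagreed: library A had the place only inside a region of 137.07 kb, and library B had it at rank 3692 of 6061. At 120 min the best region ranked 225 of 4559, and at 240 min 101 of 5144 and 341 of 7728. At 360 min it ranked 513 of 2948, and the unstimulated list held no region there of any width. This was the 1 merged region gained at 360 min.

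The other Pol II regions of the window were narrow. The region chr6:129120721-129123250 was covered over 2530 and 840 bp at 240 min and 0 bp in all other libraries. The region chr6:129138131-129140400 was covered over 1610 bp at 120 min and 1160 and 2270 bp at 240 min, and 0 bp elsewhere at the limit of 25 kb. With regions up to 100 kb the 60-min libraries covered 1460 and 2270 bp of it, so that at 60 min its status depends on the limit. Only 240-min library B held chr6:129325101-129326510, over 1410 bp, so it was not called gained.

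**Figure D2:**
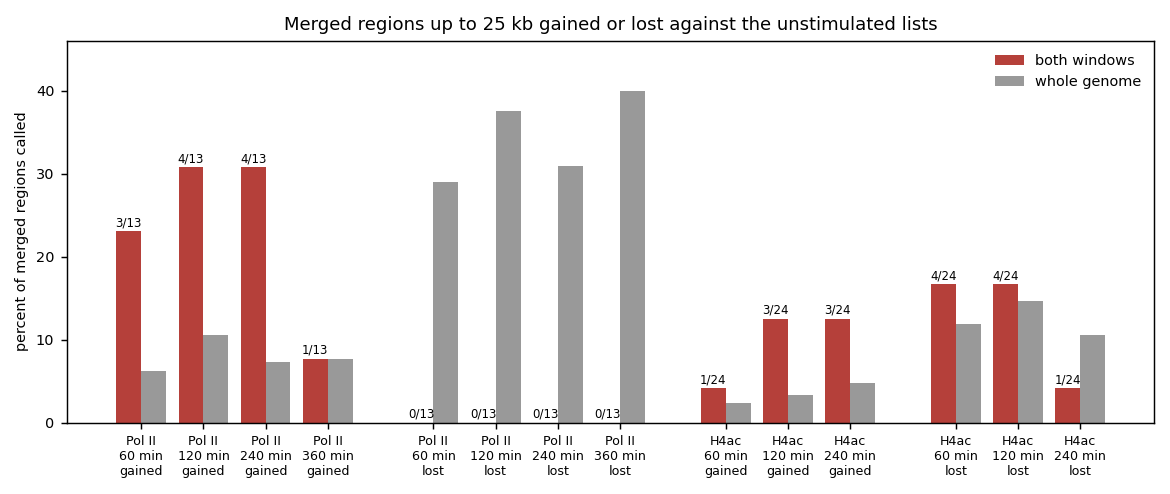
Percent of merged regions up to 25 kb gained (held by every list of a time and no unstimulated list) or lost (held by every unstimulated list and no list of that time), in both C-type lectin windows (red, with the number called of the number in the windows) and over the whole genome (grey). For Pol II, 3, 4, 4 and 1 of 13 merged regions were gained at 60, 120, 240 and 360 min and 0 were lost at any of them. Only 4 of the 13 were in the unstimulated list and so could be lost.

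H4ac, a mark of open and active chromatin, was listed at many places in both windows before LPS, and few merged regions were gained or lost with it. Regions of up to 10 kb were merged over the 8 H4ac libraries, which gave 31 merged regions in the windows of 24406 over the genome. All 8 lists held 8 of them, against 23.4% over the genome. Called by the rule used for Pol II, with both unstimulated lists, 1 was gained and 5 were lost at 60 min, against 2.7% and 12.8% over the genome. At 120 min 3 were gained and 6 lost, against 3.85% and 15.8%, and at 240 min 3 were gained and 4 lost, against 5.57% and 11.1%. The lost counts come to 16.1%, 19.4% and 12.9% of the 31, near the genome's shares. With regions up to 25 kb, 24 merged regions lay in the windows, of which 1, 3 and 3 were gained at 60, 120 and 240 min, against 2.33%, 3.35% and 4.83% over the genome, and 4, 4 and 1 were lost, against 11.9%, 14.7% and 10.5%.

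**Figure D3:**
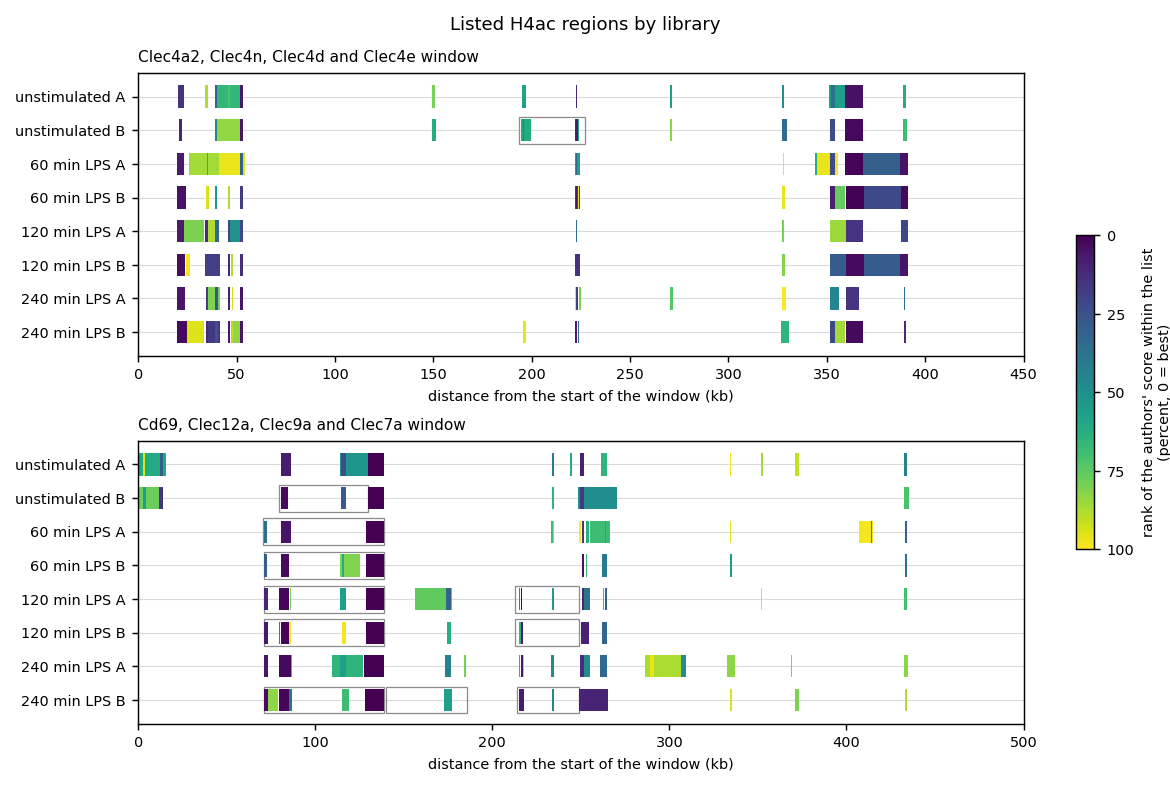
H4ac regions listed in each of the 8 libraries by distance from the start of the Clec4 window (upper) and the Cd69 window (lower) in kb, drawn as for Pol II. A narrow region starting 70.8 kb into the Cd69 window is present in all 6 LPS libraries and neither unstimulated library, while the regions 2.6 and 11.5 kb into that window are present in the unstimulated libraries only.

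The H4ac region gained at every time was chr6:129120801-129129150, the single such region in the windows, against 0.918% of merged regions over the genome. It was covered over 0 bp in both unstimulated libraries, 1800 and 1990 bp at 60 min, 2070 and 2340 bp at 120 min and 2440 and 8250 bp at 240 min. That the 6 LPS libraries lay above both unstimulated ones follows from the call itself. The unstimulated libraries also held no region of any width there. Its best region ranked 8445 of 23682 and 4557 of 15392 at 60 min, 2479 of 23028 and 1045 of 15256 at 120 min, and 1601 of 27235 and 571 of 17894 at 240 min. The Pol II region chr6:129120721-129123250, listed at 240 min, overlaps it.

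Other H4ac regions were gained at 120 and 240 min. The region chr6:129222781-129227200 was covered over 0 bp in the unstimulated and 60-min libraries, 2980 and 2370 bp at 120 min and 3250 and 4420 bp at 240 min. It overlaps the Pol II block chr6:129214761-129225510, which appeared at 60 to 120 min. The region chr6:129264871-129267950 was covered over 0 bp unstimulated and at 60 min, 940 and 2140 bp at 120 min and 1520 and 3080 bp at 240 min. In both cases all 4 later libraries were above all 4 earlier ones, which for the unstimulated libraries follows from the call itself. The 60-min lists have both places only within regions of 113.98 and 112.67 kb, so their status at 60 min depends on the width limit.

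Among the lost H4ac regions, chr6:122999111-123001300, chr6:129052621-129054170 and chr6:129061521-129064240 were in both unstimulated lists and no LPS list. These are 3 of 31 lost at every time, against 7.42% over the genome. The unstimulated libraries covered 1770 and 2140 bp of the first, 1240 and 1550 bp of the second and 1980 and 2710 bp of the third. Over the second, both 60-min lists and the list of 240-min library B held no region of any width, while the 120-min lists and 240-min library A held regions over 100 kb. In the Clec4 window the regions chr6:123044801-123049860 and chr6:123120541-123121750 were lost at 60 and 120 min and held again at 240 min, the first by library B over 1610 bp and the second by library A over 1210 bp. The lost regions of the Clec4 window lie inside listed regions of 284.77 to 344.36 kb in all 8 libraries, so the place itself is listed in both conditions and the change is in the narrow region alone.

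The call of loss at chr6:129178831-129188850 came from the width limit. This region was held within 10 kb by both unstimulated and both 60-min libraries, over 8540, 8560, 9800 and 9980 bp. At 120 and 240 min the listed region there was 10190, 10060, 10980 and 10530 bp wide, just past the limit of 10 kb. It ranked 23 of 28522 and 16 of 21058 in the unstimulated lists, 28 of 23682 and 9 of 15392 at 60 min, 17 of 23028 and 11 of 15256 at 120 min and 22 of 27235 and 9 of 17894 at 240 min. It was therefore among the 28 best-scored regions of every H4ac list. Its listed width was 8540 and 8560 bp unstimulated and 9800 to 10980 bp with LPS, with no overlap between the conditions. The gap nearly closes by covered length. With all regions up to 25 kb, 9710 and 8560 bp of the place were covered unstimulated, against 9720 to 9980 bp with LPS. The Pol II block chr6:129179461-129188480 lies over it.

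H4ac at the far end of the Clec4 window, over the Pol II block, was wide at 60 and 120 min and narrow before and after. The region chr6:123237271-123241530 was covered over 1450 and 1820 bp unstimulated, 4260 and 3860 bp at 60 min, 3840 and 4220 bp at 120 min and 680 and 1320 bp at 240 min. The libraries of 60 and 120 min did not overlap with the others, and those of 240 min lay below the unstimulated ones. Its region ranked 17494 of 28522 and 14514 of 21058 unstimulated, 1186 of 23682 and 367 of 15392 at 60 min, 4860 of 23028 and 813 of 15256 at 120 min and 9518 of 27235 and 2153 of 17894 at 240 min. Beside it, chr6:123193871-123218710 was held by all 8 lists, over 17340 and 11440 bp unstimulated and 11220 to 21010 bp with LPS, which overlap.

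At the start of the Clec4 window, chr6:122869571-122883660 was held by all 8 H4ac lists and lies over the start of the Pol II block listed from 60 to 240 min. It was covered over 2680 and 1600 bp unstimulated, 3490 and 4470 bp at 60 min, 3680 and 5920 bp at 120 min and 3720 and 13830 bp at 240 min. All 6 LPS libraries were above both unstimulated ones. With regions up to 25 kb the place merges into chr6:122869571-122904410 and the conditions overlap, at 7980 to 32000 bp with LPS and 17730 and 15930 bp unstimulated.

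Under the same Pol II block and next to it, further H4ac regions were held by all 8 lists. The region chr6:122883901-122891600 was covered over 2180 and 900 bp unstimulated, 310 and 1590 bp at 60 min, 7150 and 7580 bp at 120 min and 7410 bp in both 240-min libraries. The 60-min libraries overlapped with the unstimulated ones and the 4 later libraries were above them. The region chr6:122895611-122903470 was covered over 2230 and 1950 bp unstimulated, 1230 bp in 60-min library A, 7430 and 3010 bp at 120 min and 2630 and 6390 bp at 240 min. Both 60-min libraries were below the unstimulated ones there, and the 4 later libraries were highest. Further on, chr6:123071881-123074550 was covered over 410 and 1860 bp unstimulated and 340 to 2600 bp with LPS, which overlap. In the Cd69 window, chr6:129129271-129137060 was also held by all 8 lists, over 5780 and 4080 bp unstimulated and 4650 to 7780 bp with LPS, and here the conditions overlapped.

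Over a whole window, the length covered by H4ac regions up to 100 kb did not separate LPS from unstimulated libraries. In the Clec4 window it was 53.8 ± 16.1 kb with LPS (SD, n = 6) and 54.8 ± 18.4 kb unstimulated (SD, n = 2), a difference of -0.92 kb (exact two-sided permutation test, p = 1, and 1 after Benjamini-Hochberg adjustment over 4 tests). By library it was 41.78 and 67.74 kb unstimulated, 79.15 and 51.13 kb at 60 min, 51 and 60.5 kb at 120 min and 29.37 and 51.89 kb at 240 min. The difference had opposite signs in the 2 sets of libraries that share a title date, 23.3 kb among the A libraries and -13.2 kb among the B libraries, with 240-min library A alone on its date.

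The H4ac length in the Cd69 window was 111 ± 35.4 kb with LPS (SD, n = 6) and 78.8 ± 27.6 kb unstimulated (SD, n = 2). This difference of 32.7 kb did not pass the test (exact two-sided permutation test, p = 0.286, and 1 after adjustment). With 6 against 2 libraries the p of this test cannot go below 0.0714, so no difference could pass 0.05. By library the length was 59.251 and 98.261 kb unstimulated, 93.27 and 74.24 kb at 60 min, 133.04 and 113.7 kb at 120 min and 84.94 and 169.67 kb at 240 min. Both 120-min libraries were above both unstimulated ones, and the other times overlapped with them. Within the sets sharing a title date it was 53.9 and 20.9 kb longer with LPS.

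Pol II covered more of the Clec4 window at 60 to 240 min than unstimulated or at 360 min. The length was 21.16 kb unstimulated, 50.68 and 49.88 kb at 60 min, 38.14 kb at 120 min, 45.87 and 67.02 kb at 240 min and 13.86 kb at 360 min. In the Cd69 window it was 74.96 kb unstimulated, 77.84 and 120.94 kb at 60 min, 86.59 kb at 120 min, 90.63 and 94.24 kb at 240 min and 85.27 kb at 360 min. All 6 LPS libraries were above the unstimulated one there, and against 1 library no test was made. The mean over LPS libraries exceeded the unstimulated value by 23.1 kb in the Clec4 window with regions up to 100 kb, but fell short of it, at -2.35 kb, with regions up to 10 kb. At that limit the block chr6:122870401-122891120 was covered over 2730 and 6350 bp at 60 min and 0 bp in every other library.

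**Figure D4:**
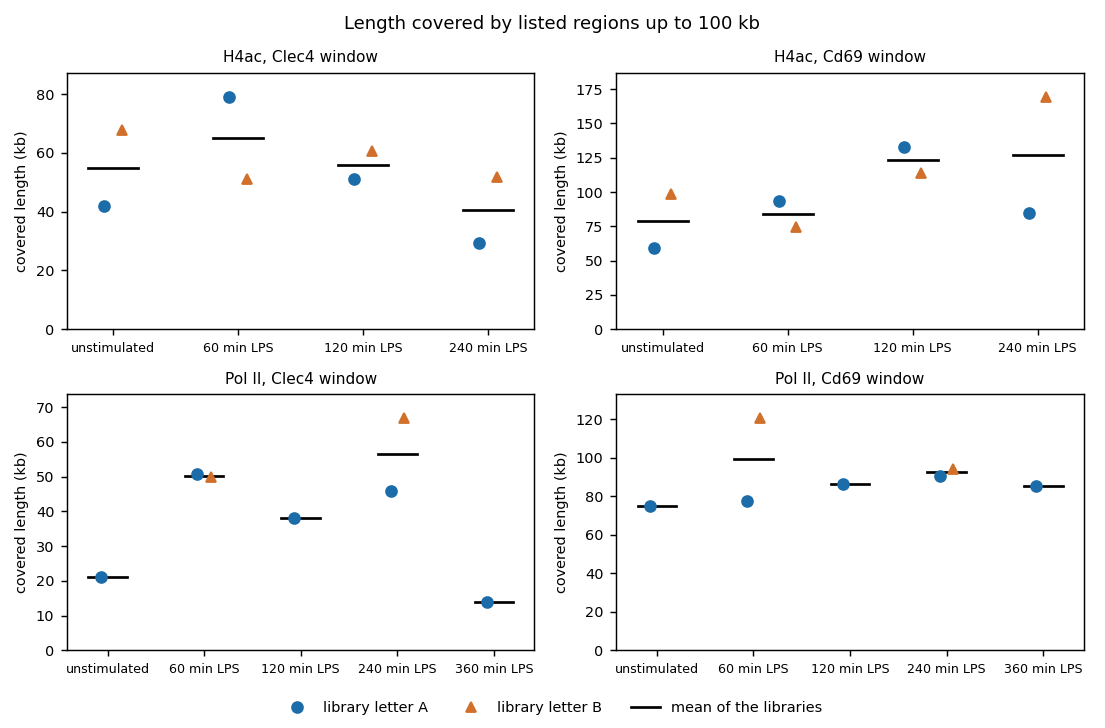
Length in kb covered by listed H4ac (upper) and Pol II (lower) regions up to 100 kb in the Clec4 window (left) and the Cd69 window (right), by time of LPS. Points are libraries, marked by the letter in their titles, and bars are the means of the libraries of a time. Pol II in the Clec4 window stands at 38.14 to 67.02 kb from 60 to 240 min, and the H4ac libraries of the 2 conditions overlap in both windows.

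NF-κB p50 was listed in the windows in 1 of 7 libraries. LPS library A had 4 regions, covering 0.36 kb of the Clec4 window and 1.12 kb of the Cd69 window, and the other 3 LPS libraries and the 3 unstimulated libraries had 0. The mean was 0.28 ± 0.56 kb with LPS (SD, n = 4) and 0 kb unstimulated (n = 3) in the Cd69 window, which did not pass the test (exact two-sided permutation test, p = 1, and 1 after adjustment). In the Clec4 window it was 0.09 ± 0.18 kb with LPS and 0 kb unstimulated (exact two-sided permutation test, p = 1, and 1 after adjustment). The smallest p that 4 against 3 libraries allow is 0.0571, so no difference could pass 0.05. None of the 4 regions was gained (3 or more LPS lists and no unstimulated list) or lost (2 or more unstimulated lists and no LPS list), against 9.6% and 0.646% of the 2478 merged p50 regions of the genome. The LPS lists held 324 to 1378 regions and the unstimulated lists 354 to 447, and library A had the longest list.

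Of the 4 p50 regions of library A, 3 lay over Pol II and H4ac listed at the same time, in both 60-min libraries of each. They were chr6:122871501-122871860 at rank 964 of 1378, chr6:129186191-129186990 at rank 1298, chr6:129225371-129225510 at rank 1088 and chr6:129301141-129301320 at rank 594. The first lies in the Pol II block listed from 60 to 240 min, and the third at the edge of the block chr6:129214761-129225510 that appeared with LPS. The third overlapped no 60-min Pol II or H4ac region up to 100 kb and meets the merged regions through libraries of later times. Merged over all times, 4 of 4 overlapped Pol II and 4 of 4 overlapped H4ac, against 26% and 56.8% of the 2478 merged p50 regions of the genome. The best-ranked of them stood at 43.1% of the list.

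NF-κB p65, the partner of p50 that carries an activation domain, had 5 regions in 3 of 4 LPS libraries and 0 in the unstimulated library. In the Clec4 window the same place was listed at chr6:122993371-122993520 in 60-min library A, at rank 742 of 2285, and at chr6:122993391-122993530 in 120-min library C, at rank 1813 of 2110. The 120-min library C also held, in the Cd69 window, chr6:129182791-129183020 at rank 391 and chr6:129540871-129541020 at rank 2044. The 60-min library X held a single wide region, chr6:129179971-129188420, at rank 700 of 782. The 120-min library X had 0, and its list of 814 regions and the unstimulated list of 255 were short. None of the 5 p65 libraries shares a title date with another, so date and condition cannot be told apart.

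ATF3, a bZIP repressor that LPS induces in macrophages, was mapped at 240 min only, so no comparison with unstimulated cells can be made. Library A held 10 regions, library B 0 and library C 1, from lists of 3954, 1257 and 2604 regions. In the Clec4 window, library A had chr6:123194381-123194520 at rank 491 and chr6:123215931-123216060 at rank 193, the best-scored ATF3 region of both windows. It also had chr6:123202801-123203020 at rank 3313 and chr6:123210271-123210390 at rank 2517. All 4 of these lie at the end of the window where Pol II was listed in every library. Over the Cd69 window library A had chr6:129182721-129188030 with chr6:129185881-129186090 nested in it, at ranks 3741 and 1671, and 4 more at ranks 1949 to 3860. Library C held chr6:129284861-129285000 at rank 816. No ATF3 place was listed in more than 1 library.

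**Figure D5:**
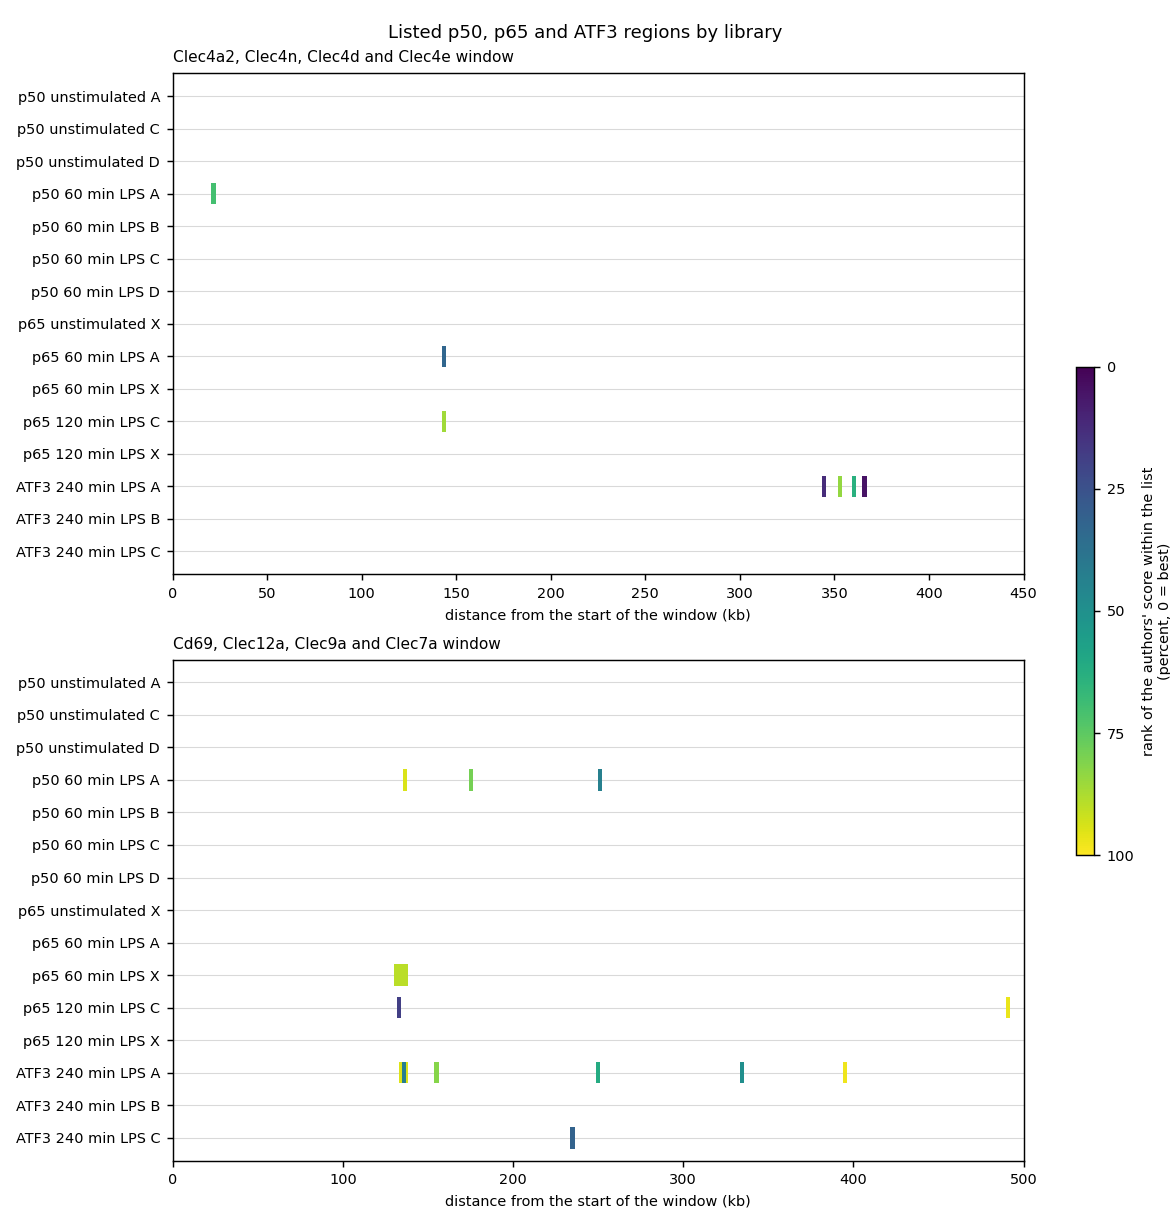
Regions of p50, p65 and ATF3 listed in each of their 15 libraries by distance from the start of the Clec4 window (upper) and the Cd69 window (lower) in kb, coloured by the percent rank of the authors' score in that list. Regions are drawn at least 2.5 kb wide so that they can be seen. Regions of p50, p65 and ATF3 each occur between 129.5 and 138.5 kb into the Cd69 window, where their narrow regions do not overlap one another. In the Clec4 window 4 of the 15 rows hold a region.

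The block of the Cd69 window at chr6:129179461-129188480 held regions of every target other than H3K27me3. It was held by p50 LPS library A, by p65 60-min library X and 120-min library C, by ATF3 library A, by all 7 Pol II lists and by all 8 H4ac lists. The p50 region ranked 1298 of 1378. For p65 the ranks were 700 of 782 in library X and 391 of 2110 in library C. For ATF3 they were 3741 of 3954 for the wide region and 1671 for the one nested in it. The narrow regions chr6:129186191-129186990 (p50), chr6:129182791-129183020 (p65) and chr6:129185881-129186090 (ATF3) did not overlap one another. Merged over all times, 11 of the 13 Pol II regions of both windows overlapped a merged H4ac region, against 82.5% over the genome. For ATF3 8 of 10 merged regions overlapped H4ac, against 45.8%, and 4 of 10 overlapped Pol II, against 14%. ATF3 was mapped at 240 min only, and some of these overlaps are with other times. The ATF3 regions chr6:123202801-123203020 and chr6:123210271-123210390 overlapped no 240-min Pol II region up to 100 kb. Likewise chr6:123194381-123194520 overlapped no 240-min H4ac region up to 100 kb. They meet the merged regions through libraries of earlier times. For p65 1 of 3 overlapped H4ac, against 19.9%, and 1 of 3 overlapped Pol II, against 10.3%. No overlap was tested. The p65 place in the Clec4 window listed by both libraries A and C overlapped neither mark among regions up to 25 kb.

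H3K27me3, a mark of Polycomb-repressed chromatin, had 0 regions in either window in any of its 5 libraries, of any width. Its lists held 2687 to 4707 regions. Unstimulated cells, 120, 240 and 480 min of LPS and the 60-min pulse with a 7 h delay were alike in this. Without the depth of the libraries, a weak signal cannot be told apart from none.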

How the data were processed

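The deposited files are lists of regions, 1 per library, with chromosome, start, end and a score. The score is the authors' own value per region, per the file contents, and was used only to rank regions within a list. Build mm9 comes from the submitters' processing notes, and for the aligner and the peak caller nothing is given in the sources used here. Lists are per library, with no counts, so depth and counting error are unknown.

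Starts were shifted to 1-based positions. Listed regions are nested, so covered length is that of their union. Members are regions up to 100 kb. For calls, regions up to 10 kb (H4ac, p50, p65, ATF3) or 25 kb (Pol II) were merged across the libraries of a target, with a minimum overlap of 1 bp. The 25 kb limit was chosen after the widths were seen. Co-location with H4ac used its regions merged at 25 kb. Covered length was tested by exact two-sided permutation over libraries, adjusted over 4 tests. Wider regions, the better-scored 50 percent of each list, shares of each list's covered length, left-out libraries and blocks by title letter were tried. The code of the calls was checked on simulated lists of separate, narrow regions. Unlike the real lists, these had no nested regions and no width limit. The shares of merged regions that overlap H4ac or Pol II were counted in the windows and over the genome. Python 3.11.15, numpy 2.4.6, pandas 2.3.3 and matplotlib 3.10.9 were used.

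The members, windows and lists were chosen with earlier results of these data known. The rule for named regions was every merged region called in the windows and the best-scored listed region of each target; all other Pol II regions, the H4ac regions held by all lists and overlapping Pol II, and all p50, p65 and ATF3 regions were added after their values were seen. Start sites, gene bodies and cell type markers were to be examined on an mm9 annotation and are not analysed here. RefSeq promoters are of GRCm38.p6.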

Additional observations from a re-analysis of the deposited data

Results flagged for a closer look

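In p50 LPS library A the covered length, 0.36 kb in the Clec4 window and 1.12 kb in the Cd69 window, lay far from the other 3 LPS libraries, which were at 0. In p65 60-min library X, 8.45 kb of the Cd69 window was covered, against 0, 0.38 and 0 kb in the other LPS libraries of p65, and it came from 1 wide region. Chance alone marks about 1 in 20 groups in this way.

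Regions over 100 kb were not counted as members. Over the Cd69 window the LPS lists held 6 of them for H4ac (6 lists), 8 for Pol II (6 lists) and 1 for p65 (4 lists). The unstimulated lists, 2 for H4ac and 1 each for Pol II and p65, held 0 there. Over the Clec4 window p65 had 1 with LPS and 0 unstimulated, H4ac 7 and 2, and Pol II 9 and 1. The sums are over more lists with LPS than without. The widest of them spanned 109692 kb. Their part in the results was not tested.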

How the results depend on the processing

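The H4ac difference in the Clec4 window (-0.92 kb) turned sign with regions up to 10 kb (7.92 kb), with the better-scored 50% of each list (15.8 kb) and as a percent of each list's covered length (0.00277 percentage points), and ranged from -13.9 to 12.06 kb as single libraries were left out, being 12.06 kb without unstimulated library B and 3.974 kb without 240-min library A. In the Cd69 window (32.7 kb) it was -0.983 kb with regions up to 10 kb and 13.2 to 52.2 kb with a library left out. No H4ac or p50 length test passed under any alternative run, with exact permutation p from 0.143 to 1. None could pass 0.05, so this says nothing about a difference. The smallest possible p was 0.0714 for H4ac and 0.0571 for p50, and is higher with a library left out. The cause of the shifts in the H4ac differences was not tested.

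Counts of H4ac regions gained at 60, 120 and 240 min (1, 3 and 3) and lost (5, 6 and 4) became 2, 0 and 1 gained and 1, 2 and 2 lost with regions up to 1 kb, and 0, 1 and 1 gained and 3, 3 and 1 lost with regions up to 100 kb. With regions up to 25 kb 1 was lost at 240 min, and in the better-scored 50% 2 and 5 were gained at 60 and 120 min. With a library left out, 1 to 3, 3 to 4 and 3 to 8 were gained and 5 to 8, 6 to 9 and 4 to 6 lost. Those past 1.5 times were 3 gained at 60 min without unstimulated library A, 2 without 60-min library B, 8 gained at 240 min without 240-min library B and 8 lost at 60 min without unstimulated library B. The Pol II excess in the Clec4 window (23.1 kb) was -2.35 kb with regions up to 10 kb, -2.15 kb up to 1 kb and 18.5 to 29.2 kb with an LPS library left out. In the Cd69 window (17.6 kb) it was 1.47 kb up to 1 kb, 59.4 kb in the better-scored 50% and 12 to 20.6 kb. Pol II regions gained at 60 and 240 min numbered 3 to 4 and 4 to 7 with a library left out. Counts of p50 calls stayed 0, and the p50 lengths ranged from 0 to 0.12 kb in the Clec4 window and from 0 to 0.373 kb in the Cd69 window with a library left out, both 0 without LPS library A.

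The title letters were not taken to pair the libraries, since same-letter correlations of deviations, at 0.0185 to 0.226 for p50 and 0.0473 to 0.22 for H4ac, were not all over 0.1. For H4ac every one was above 0, and the letters follow the title dates except in 240-min library A. With the letter as a replicate block the H4ac differences were -0.92 kb (exact permutation p = 0.875) and 32.7 kb (exact permutation p = 0.25), the p50 ones 0.12 and 0.373 kb (exact permutation p = 1 each), and the p50 calls 0. Unknown depth limits every statement that a region was not listed.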
